A study of Homo sapiens with 6 samples.

Results

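The amyloid precursor protein gene APP, its homologues APLP1 and APLP2, and genes of the secretases that cut their products were followed through androgen treatment of LNCaP, a cell line that responds to androgen and was established from a metastasis of human prostate cancer. The 9 genes were chosen by name: APP, APLP1 and APLP2, the alpha secretases ADAM10 and ADAM17, the beta secretases BACE1 and BACE2, and PSEN2 and NCSTN of the gamma secretase. They are 9 of 19775 genes with at least 1 probe set of their own on the Affymetrix array, and 30 probe sets name 1 of them alone. Of these, 27 were bright enough to be tested and 3 were below the signal limit. All 6 cultures were held for 3 days in phenol red-free RPMI with 10% charcoal and dextran stripped serum. The 3 cultures of the treated group were then given 100 nM dihydrotestosterone (DHT), a natural androgen, for 48 h, and 3 biological replicates served as controls. The vehicle of the controls is not stated in the labels, and no time is given for them.

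The product of APP spans the membrane once and is processed by proteases. Cleavage by an alpha secretase falls inside the amyloid-beta sequence and releases a soluble ectodomain. Cleavage by a beta secretase followed by the gamma secretase, a complex inside the membrane, releases the amyloid-beta peptide. APLP1 and APLP2 are processed by related enzymes but lack the amyloid-beta sequence. The same secretases cut many other membrane proteins, Notch receptors among them, and APP and APLP2 are made in many epithelial tissues as well as in the brain.

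Values are MAS5 signals, a scaled linear intensity per probe set. Differences are DHT minus control on log2(signal + 16), with the standard error of the limma fit, and a fold of signals is the ratio of group means. Each probe set has its own response, so differences between probe sets within an array are compared between groups only and not read as levels. The genes were picked with the DHT minus control values of these arrays in view, so their differences are a description and no p-value is given for them. By the fit over all 32768 tested probe sets, called at a Benjamini-Hochberg adjusted p of 0.05, 3 of the 27 tested probe sets were lower with DHT and 5 were higher, and 19 were not called. Over all tested probe sets the called shares were 5.25% lower, 5.09% higher and 10.3% in either direction. The 3 DHT arrays lay above all controls for 12 of the 27 and below them for 3, against 15.0% and 13.8% of all tested probe sets. The median difference was 0.13 over the 27 and 0.01 over all tested probe sets. Because the choice used this contrast, nothing is read from these counts. In whole cultures, fewer cells that carry an RNA and less RNA per cell cannot be told apart.

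The sequences just before the transcription starts are shown for APP, which held all 3 probe sets called lower, and for APLP2 and ADAM10, which held the 5 called higher. They were taken from RefSeq (GRCh38.p14), where 8 of the 9 genes matched with 11 starts. Each run is the 250 bases before a start, 5′ to 3′ on the gene's strand. The capitals mark a GC box or a TATA box on either strand, whose letters are given after the sequences.
APP, chr21:26171129-26171378, minus strand, the first of 2 starts: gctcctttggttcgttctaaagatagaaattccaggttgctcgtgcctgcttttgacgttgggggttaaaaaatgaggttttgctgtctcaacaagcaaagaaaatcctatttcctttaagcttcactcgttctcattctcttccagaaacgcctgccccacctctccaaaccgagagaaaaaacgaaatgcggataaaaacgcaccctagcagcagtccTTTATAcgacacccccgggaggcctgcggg
APLP2, chr11:130070318-130070567, plus strand: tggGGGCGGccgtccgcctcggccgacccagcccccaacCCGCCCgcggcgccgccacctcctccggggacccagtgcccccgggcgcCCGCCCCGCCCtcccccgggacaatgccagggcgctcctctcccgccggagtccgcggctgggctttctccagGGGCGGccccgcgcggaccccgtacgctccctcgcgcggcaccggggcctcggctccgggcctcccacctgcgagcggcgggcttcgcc
ADAM10, chr15:58749708-58749957, minus strand: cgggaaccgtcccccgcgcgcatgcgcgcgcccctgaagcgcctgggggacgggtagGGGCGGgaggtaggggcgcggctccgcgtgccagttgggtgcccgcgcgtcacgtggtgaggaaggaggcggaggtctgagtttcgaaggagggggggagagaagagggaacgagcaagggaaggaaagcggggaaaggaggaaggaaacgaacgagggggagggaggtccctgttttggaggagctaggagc

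The window of APLP2 held 5 GC boxes, 2 of them sharing a base, at a GC content of 82.4%, and that of ADAM10 held 1 at 68.4%. The window of the first APP start held no GC box and 1 match to the TATA box, on the strand opposite to the gene, at 47.6% GC. The window of the second APP start had neither at 78.8%. That window lies downstream of the first start, so it is not upstream of the whole gene. The GC box was searched as GGGCGG on both strands, and 42.6% of all 35116 such windows held it. The TATA box was searched as TATAAA on both strands, and 10.7% of all windows held it. The median GC content of all windows was 58.0%. An arm of the androgen receptor's palindromic element, searched as AGAACA on both strands, was present in 12.4% of all windows and in 1 of the 11 windows of these genes, that of the third BACE1 start. The full element, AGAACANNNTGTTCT, holds that arm on each side and was in 1 of the 35116 windows and in none of the 11. These matches describe the letters of these windows only.

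APP was lower with DHT in all of its 3 probe sets, by amounts that differed between them. In probe set 214953_s_at the control signals were 1863, 2119 and 1991, and those with DHT were 399, 481 and 442. Each treated array was far below each control, and the group means differed 4.52-fold, with a difference of -2.14 ± 0.09 (SE, n = 3 each). In 211277_x_at, whose suffix marks probes prone to cross-hybridisation, the controls had 158, 193 and 202 and the treated arrays 57.8, 71.0 and 116. Its group means were 184 ± 23.4 and 81.5 ± 30.5 (SD, n = 3 each), a 2.26-fold lower signal with DHT and a difference of -1.08 ± 0.19 (SE).

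The third APP probe set, 200602_at, gave 604, 519 and 625 in the controls and 323, 376 and 500.3 with DHT. The groups did not overlap here either, but the third treated array was only just below the lowest control. Its means were 582 ± 56.1 and 399.9 ± 90.8 (SD, n = 3 each), with a difference of -0.54 ± 0.14 (SE). It was not called when any of control replicate 1, control replicate 3, DHT replicate 1 or DHT replicate 2 was left out, at differences down to -0.41 without DHT replicate 1, nor without the filter on dim probe sets or without the intensity trend of the fit. The other APP probe sets were called whichever array was left out, between -0.90 and -1.32 for 211277_x_at and between -2.07 and -2.20 for 214953_s_at.

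The APP probe sets also differed unequally within arrays. The log2 value of 214953_s_at minus that of 200602_at was 1.60, 1.997 and 1.65 in the controls and 0.29, 0.34 and -0.17 with DHT. It thus shifted by -1.60 between the groups, with standard deviations of 0.22 in the controls and 0.28 with DHT (n = 3 each). Against 211277_x_at the shift was -1.06, and 211277_x_at against 200602_at shifted by -0.53, each without overlap of the groups. In each pair the probe set with the lower difference was put first, so the sign of these shifts was fixed by the choice. The mean over all 3 probe sets had a difference of -1.25 ± 0.12 (SE). The annotation used here does not place the probe sets along the transcript, so whether they read different ends or isoforms of APP was not tested. Beside this, the signal ratio of the 3′ to the 5′ control probe set of ACTB was 1.33, 1.42 and 1.34 in the controls and 1.76, 1.72 and 1.85 with DHT. That ratio differed by 0.41 between the groups (two-sided exact permutation p = 0.1, the smallest that 3 against 3 arrays can give), and its part in the APP values was not tested.

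**Figure D1:**
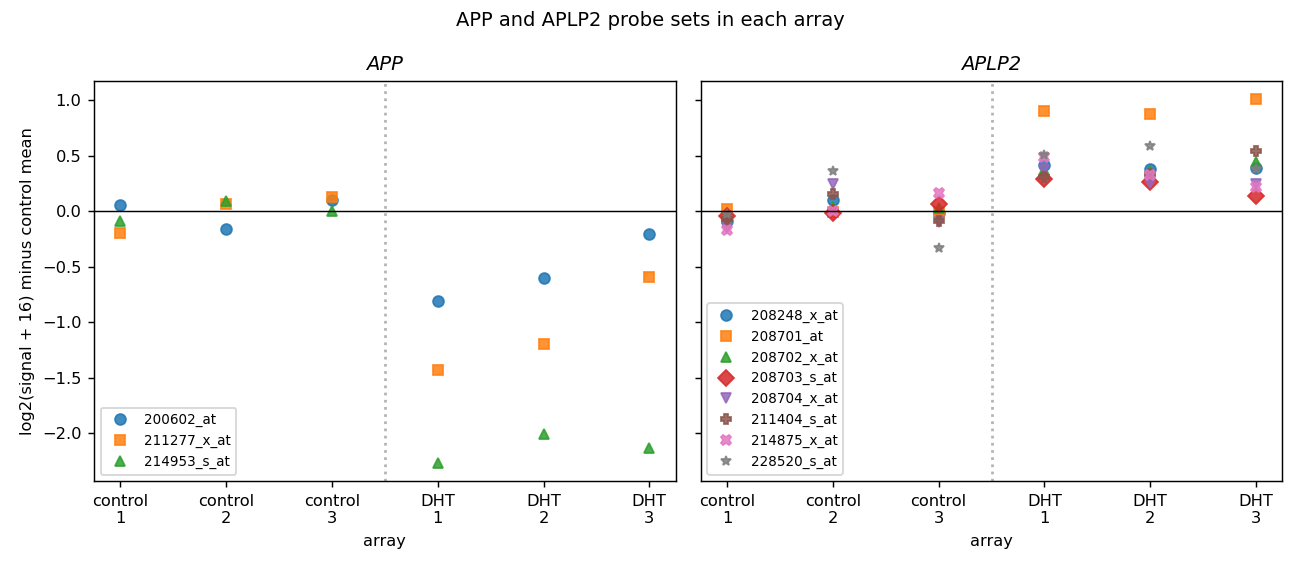
Each point is 1 probe set in 1 array, as log2(signal + 16) minus the mean of the 3 controls, for APP (left) and APLP2 (right); the x axis lists the 3 control and 3 DHT arrays. All 3 APP probe sets lie below 0 in each treated array, from -0.54 on average for 200602_at to -2.14 for 214953_s_at, and all 8 APLP2 probe sets lie above their controls, 208701_at highest at 0.93.

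APLP2, the homologue found in most tissues, was measured by 8 probe sets, and in each of them the 3 treated arrays were above the 3 controls. The largest difference was in 208701_at, with 72.6, 71.2 and 71.1 in the controls and 148, 145 and 160.3 with DHT, a 2.11-fold higher mean and a difference of 0.93 ± 0.11 (SE). Probe set 208248_x_at had 1834, 2102 and 1934 in the controls and 2619.7, 2545 and 2556 with DHT, a 1.32-fold higher mean (0.39 ± 0.07).

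Both groups were tight in these probe sets, and the gap between them was clear of the spread. The remaining APLP2 probe sets had differences of 0.23 (208703_s_at), 0.29 (208704_x_at), 0.34 (214875_x_at), 0.39 (208702_x_at), 0.40 (211404_s_at) and 0.49 (228520_s_at), and the mean over all 8 was 0.43 ± 0.07. Of the 8, 4 were called higher, 208248_x_at, 208701_at, 208702_x_at and 211404_s_at, and 4 were not called. Probe set 211404_s_at was not called without control replicate 1, control replicate 3 or DHT replicate 3, nor with equal array medians (0.33), and without the intensity trend 208701_at alone of the 8 was called. Since 4 of the 8 have the _x_at suffix and several share transcripts, the 8 are not independent readings. Within arrays, 208701_at shifted by 0.53 against 208248_x_at and by 0.70 against 208703_s_at. It was picked as the APLP2 probe set with the largest difference and 208703_s_at as that with the smallest, so the sign of these shifts was fixed by the choice.

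APP and APLP2 therefore differed from their controls in opposite directions at the deposited scaling, which fixes the average transcript of each array. With arrays scaled instead to the hybridisation spikes, every difference moved by -0.55 and the median over all tested genes became -0.53. The APP differences were then -1.09, -1.63 and -2.69. Of the APLP2 probe sets 208701_at alone stayed above 0, at 0.38, and the other 7 lay between -0.06 and -0.32. The order of APP below APLP2 does not depend on the constant, but the sign for APLP2 does.

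APLP1, the homologue known mainly from neurons, was read by 1 probe set, 209462_at. Its signals were 418, 322 and 351 in the controls and 332, 310.5 and 322 with DHT, so the groups overlapped, with a difference of -0.16 ± 0.10 (SE).

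**Figure D2:**
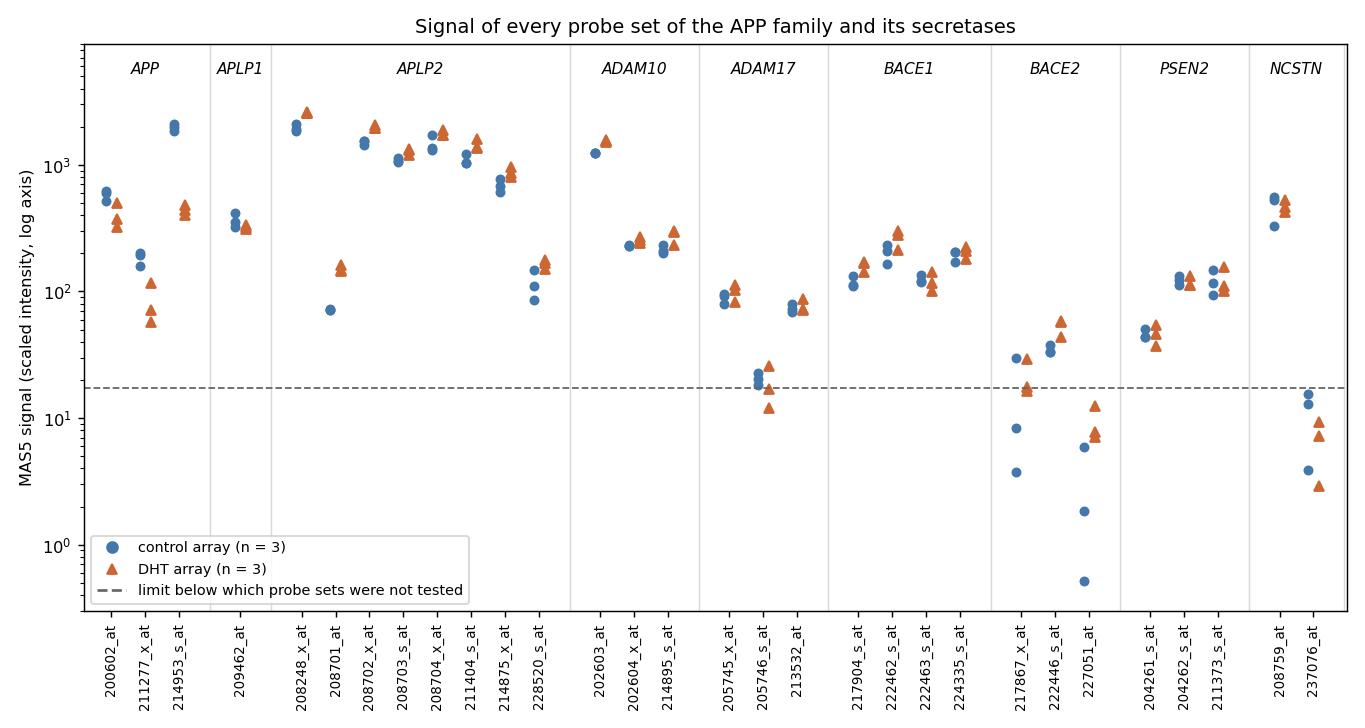
Signal of the 30 probe sets in each array on a log axis, with circles for the 3 control arrays and triangles for the 3 DHT arrays, and a dashed line at 17.3, the signal below which probe sets were not tested. APP 214953_s_at lies at a mean of 1991 in the controls and 441 with DHT, and the means of 2 BACE2 probe sets and 1 NCSTN probe set are on average near or below the line.

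Among the alpha secretases, ADAM10, the main constitutive alpha secretase of APP, had a small positive difference in each of 3 probe sets. Probe set 202603_at was 1239.6, 1236 and 1231 in the controls and 1503, 1562 and 1543 with DHT. These arrays agreed closely within each group, and the treated mean was 1.24-fold higher (0.31 ± 0.07, SE). Left out in turn, DHT replicate 2 ended the call of this probe set, at a difference of 0.30. It was also not called with equal array medians (0.25) or without the intensity trend, and scaling to the spikes turned it to -0.24. In 214895_s_at the signals were 235, 209 and 201 in the controls and 299, 293 and 234 with DHT, where the third treated array reached down to the controls (0.33 ± 0.11). The last ADAM10 probe set, 202604_x_at, had 0.13 ± 0.09, and the mean over the 3 was 0.26 ± 0.07.

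ADAM17, the protease that also sheds tumour necrosis factor and takes part in stimulated alpha cleavage, showed overlapping groups in all 3 probe sets. Its differences were 0.13 ± 0.14 (205745_x_at), 0.05 ± 0.14 (213532_at) and -0.11 ± 0.24 (205746_s_at). The last was near the signal limit, at 20.4, 18.1 and 22.6 in the controls and 12.0, 25.6 and 17.0 with DHT, and its treated arrays scattered on both sides of the controls.

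The beta secretase BACE1, the enzyme that begins amyloid-beta formation, was read by 4 probe sets that did not move alike. In 217904_s_at the controls had 113, 109.8 and 132 and the treated arrays 169, 141 and 168, without overlap (0.39 ± 0.12, SE). In 222462_s_at the difference was 0.36 ± 0.14, with the second treated array (214) inside the range of the controls (165 to 235). The other BACE1 probe sets gave -0.07 ± 0.13 (222463_s_at) and 0.07 ± 0.11 (224335_s_at), with overlapping groups. Within arrays, 217904_s_at shifted by 0.45 against 222463_s_at without overlap of the groups. They were compared because they had the highest and lowest difference of the BACE1 probe sets, so the sign of this shift was fixed by the choice. None of the 4 was called, though 217904_s_at was when the limit on dim probe sets was raised to 60%.

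BACE2, the homologue of BACE1 that cuts APP mostly within the amyloid-beta sequence, had 2 of its 3 probe sets below the limit. Its 1 tested probe set, 222446_s_at, had 33.0, 37.5 and 33.4 in the controls and 56.9, 44.0 and 58.5 with DHT. The treated arrays were all higher (0.44 ± 0.17, SE), and the probe set was not called. The dim probe sets 217867_x_at and 227051_at had group means of 13.9 and 2.77 in the controls and 21.0 and 9.14 with DHT, and no fold is given for them.

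Of the gamma secretase, PSEN2, a catalytic presenilin, had differences of -0.04 (204262_s_at), -0.01 (204261_s_at) and 0.03 (211373_s_at), with standard errors of 0.12 to 0.18. In 204262_s_at the signals were 113, 124 and 131 in the controls and 132, 112 and 113 with DHT, and the groups fully overlapped. NCSTN, nicastrin, which helps to select the substrate, had 330.0, 523 and 559 in the controls and 461, 424 and 532 with DHT in 208759_at. The difference was 0.03 ± 0.16, and the first control array alone spread the controls widely. Its other probe set, 237076_at, was below the limit, at 10.8 in the controls and 6.44 with DHT. The standard errors leave room for changes of either sign in these genes. Of the 15 tested secretase probe sets 1 was called, that of ADAM10, against 10.3% of all tested probe sets, and nothing is read from this count.

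**Figure D3:**
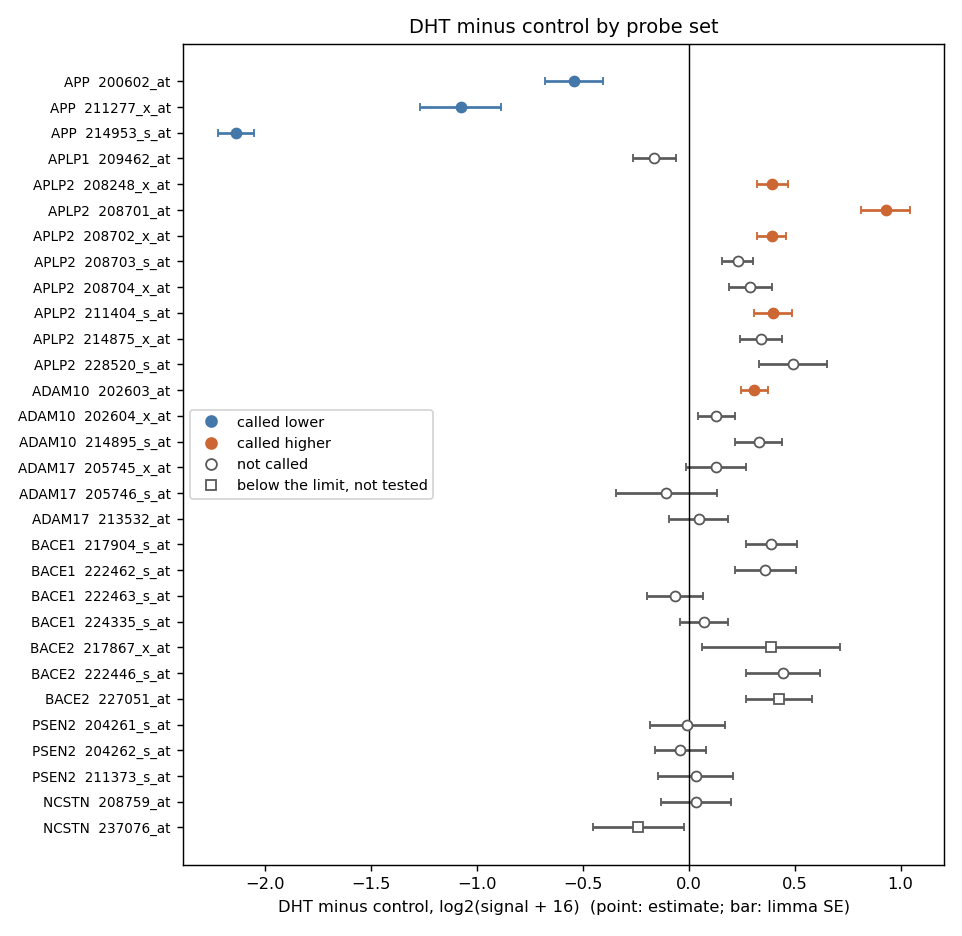
Difference of DHT minus control on log2(signal + 16) for each of the 30 probe sets, with bars for the limma standard error, filled points for probe sets called in the fit over all probe sets and squares for those below the limit. The 3 APP probe sets lie at -0.54, -1.08 and -2.14, the APLP2 probe sets between 0.23 and 0.93, and those of PSEN2 between -0.04 and 0.03.

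The genes whose values over the 6 arrays were most like those of APP 214953_s_at were RAB5C, FKBP10, MINK1, ERGIC1 and MIR210HG. Likeness was the root mean square difference of log2(signal + 16) after subtracting each control mean, and it ranged from 0.29 for RAB5C to 0.46 for MIR210HG over 6 arrays and 14269 genes. RAB5C, a small GTPase of early endosomes, had 675, 796 and 777 in the controls and 208, 199 and 227 with DHT (-1.75 ± 0.09, SE). MIR210HG, the host RNA of a microRNA, had 54.3, 49.5 and 56.1 against 8.45, 8.60 and 8.01, so its treated arrays were below the limit. MINK1 was below the limit in 2 of 3 treated arrays, and with the limit raised to 60% it was read from another probe set, at -0.27. These genes were selected on the same contrast.

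Of the genes that flank APP on chromosome 21, those bright enough to show such a fall did not share its difference. The nearest 3 with a tested probe set on the side of lower coordinates were GABPA (0.06 ± 0.13, SE), ATP5PF (-0.10 ± 0.09) and MRPL39 (0.02 ± 0.09). On the other side were CYYR1 (0.01 ± 0.31), ADAMTS1 (0.89 ± 0.07) and ADAMTS5 (0.36 ± 0.23). ADAMTS1, a secreted metalloprotease of the extracellular matrix, rose from 919, 1007 and 942 to 1710.1, 1741 and 1895 (limma adjusted p = 3.22e-05 over genes), and it was higher in 3 of 3 treated arrays than in any control. With spike scaling it was 0.34, while GABPA was -0.49 and MRPL39 -0.53. The other 5 did not pass, with adjusted p from 0.358 to 0.984. BACE2 lies on the same chromosome, and its values are given above.

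Other genes of APP processing were taken from 7 lists with 104 genes, of which 91 were tested, 9 were below the signal limit and 4 were not analysed here. Each gene was read from the tested probe set naming it alone that had the highest mean. Probe sets with the _x_at suffix were used only where no other passed the signal limit. The p-values were adjusted over 14269 genes. The lists were chosen with earlier results of these data known, so their counts and p-values are a description and not an independent test. Of the 91, 6 rose and 10 fell with DHT, and 75 did not pass. Among all tested genes 6.95% rose and 5.91% fell (991 and 843 genes; 466 and 677 with equal array medians, 104 and 9141 with spike scaling), and the median difference was -0.04 over the 91 and 0.02 over all. Of the 16 called genes, JAG1, MME, RTN1, SHC1, LRP10 and CTSD passed in limma whichever array was left out, and 10 lost the call in at least 1 such fit. Without the intensity trend JAG1, RTN1, LRP10, BIN1 and DAB1 still passed, while SHC1 (adjusted p = 0.0678), MME (0.056) and CTSD (0.0627) and the other called genes did not. Only 3 genes fell without control replicate 3 and only 3 without DHT replicate 3, and 5 or 6 fell without control replicate 1, control replicate 2 or DHT replicate 2, while 3 rose without DHT replicate 1. With spike scaling 1 rose and 70 fell.

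Of the remaining gamma secretase subunits, 3 of 4 were tested, and APH1B rose while APH1A fell, with a list median of -0.06. Both encode the scaffold subunit of the complex. APH1A went from 696, 780 and 695 to 646, 562 and 535 (-0.31 ± 0.09, SE; limma adjusted p = 0.0408), its other probe set had -1.002 and the mean of both was -0.66. It did not pass with equal array medians, without the trend or without the filter on dim probe sets. APH1B went from 239, 278 and 268 to 359, 314 and 397 (0.42 ± 0.10; adjusted p = 0.0205), but its other probe set had -0.35, and the mean of both was 0.04 (adjusted p = 0.827). APH1A passed in 1 of the 6 fits without an array and APH1B in 2, and APH1B was at -0.13 with spike scaling. PSENEN, the smallest subunit, had -0.06 ± 0.09.

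Among 13 tested genes of adaptors of APP or its homologues, or of partners of such adaptors, SHC1 and DAB1 fell and none rose, with a median of -0.10. SHC1, an adaptor between receptors and RAS, went from 676, 768 and 641 to 519, 505 and 479 (-0.46 ± 0.08, SE; limma adjusted p = 0.00512), and its other probe set had -0.74. DAB1, an adaptor of reelin signalling, was dim, with a control mean of 44.4 ± 3.45 and a DHT mean of 19.2 ± 2.43 (SD, n = 3 each), with a difference of -0.78 ± 0.19 (limma adjusted p = 0.0203), and it passed in 2 of the 6 fits without an array. MAPK8IP1 had the largest difference of those that did not pass (-0.50, adjusted p = 0.122).

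In sorting and retromer, 17 of 21 genes were tested, of which SNX3 rose and LRP10, SNX1 and BIN1 fell, with a median of -0.05. LRP10, a receptor that carries APP between Golgi and endosomes, went from 955, 967 and 867 to 652, 623 and 695 (-0.49 ± 0.08, SE; limma adjusted p = 0.00202). BIN1, which shapes endocytic membranes, had -0.46 ± 0.12 and all 4 of its other probe sets between -0.33 and -1.03. The retromer-associated SNX1 had -0.31 ± 0.07 and SNX3 0.25 ± 0.07 from a probe set prone to cross-hybridisation. The other 3 probe sets of SNX3 had -0.06, 0.14 and 0.23. SNX3 did not pass with the mean of its probe sets (0.14, limma adjusted p = 0.220), with the replicate number as a block (0.069), with equal array medians (0.26), without the trend (0.203) or without the filter on dim probe sets (0.0722), and it was -0.30 under spike scaling. GGA3, which sorts BACE1 to lysosomes, had 0.37 (adjusted p = 0.0646), and its other probe set had -0.06. SNX1, BIN1 and SNX3 passed in 2, 1 and 1 of the 6 fits without an array.

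Of 23 tested regulators of secretases, RTN1 rose and TIMP2 and TSPAN17 fell, with a median of 0.02. RTN1, a reticulon of a family that binds BACE1, went from 91.5, 98.5 and 71.9 to 181, 141 and 171 (0.80 ± 0.14, SE; limma adjusted p = 0.0035), while its other probe set had 0.31. TIMP2, an inhibitor of metalloproteases, went from 664 ± 52.2 to 513 ± 49.5 (SD, n = 3 each; -0.36 ± 0.09; adjusted p = 0.0233), with -0.46 and -0.83 in its other probe sets. TSPAN17, a tetraspanin partner of ADAM10, had -0.45 ± 0.12 (adjusted p = 0.0285). FURIN, a convertase that matures the ADAM proteases and BACE1, had -0.44 (adjusted p = 0.131). TIMP2 passed in 3 and TSPAN17 in 2 of the 6 fits without an array.

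Of 5 tested other ADAM sheddases ADAM9 rose, with a list median of -0.16. Its signals went from 1088, 1119 and 1206 to 1499.5, 1355 and 1431 (0.32 ± 0.07, SE; limma adjusted p = 0.015), and it had -0.23 with spike scaling. It did not pass without control replicate 1 or DHT replicate 1 (adjusted p = 0.0534 and 0.0568), nor with the mean of its probe sets. ADAM12 had -0.89 with overlapping groups (adjusted p = 0.0899; 0.0206 without DHT replicate 1).

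Of 14 tested enzymes that degrade amyloid-beta, MME rose and CTSD fell, with a median of -0.02. MME, neprilysin, a membrane peptidase of the prostate epithelium, went from 2711, 3289 and 3183 to 4136, 4471 and 5047 (0.57 ± 0.10, SE; limma adjusted p = 0.003), and its other probe set had 0.74. With spike scaling the MME difference was 0.02. CTSD, the lysosomal protease cathepsin D, went from 246, 229 and 236 to 129, 183 and 151 (-0.58 ± 0.12; adjusted p = 0.00897). ECE1 had -0.76 in the probe set read and 0.74 in the other, and did not pass (adjusted p = 0.126).

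Of 16 tested genes in the list of other gamma secretase substrates, which also holds the protease SPPL2A, JAG1 rose and SDC3 fell, with a median of 0.00. JAG1, a Notch ligand, went from 467, 485 and 493 to 1002, 1031 and 1093, a 2.16-fold rise (1.09 ± 0.07, SE; limma adjusted p = 5.88e-06), and its other 3 probe sets had 0.63 to 1.17. It was the 1 gene of the lists that still rose with spike scaling (0.54, adjusted p = 0.00223). SDC3, a syndecan, had -0.34 ± 0.10 (adjusted p = 0.0465) and did not pass when any of the 6 arrays was left out (limma adjusted p = 0.0654 to 0.14), nor with the mean of its probe sets (-0.15) or the replicate number as a block (0.0768). CDH2 had 0.48 (adjusted p = 0.156).

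**Figure D4:**
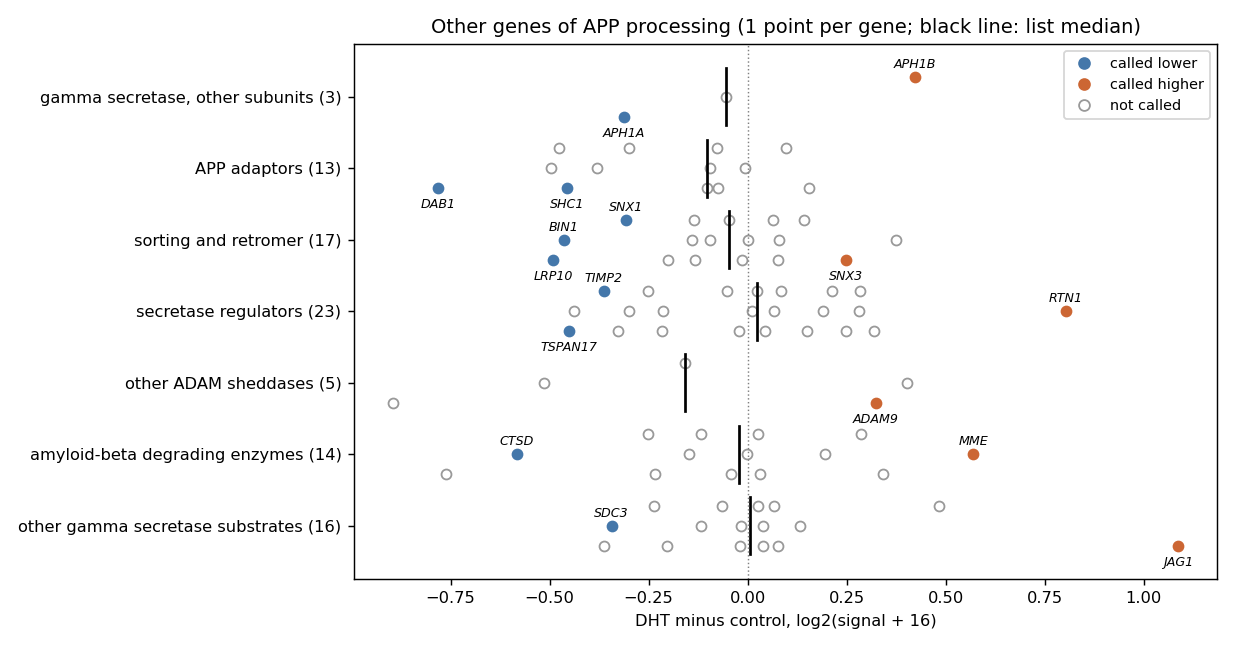
Each point is 1 tested gene of the 7 lists, placed by its DHT minus control difference on log2(signal + 16), with filled points for genes that passed over all genes, a black line at each list's median and the number of tested genes in brackets. JAG1 lies farthest to the right at 1.09, and the list medians lie between -0.16 and 0.02.

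Markers of luminal prostate cells and of other cell types were read in the same arrays. The summed signal of 8 luminal markers was 9225 to 9341 in the controls and 19049 to 19748 with DHT. Of these markers 4 rose and 2 fell (KRT8 and HOXB13). KLK3, which encodes prostate-specific antigen, had 2186 ± 261 and 8985 ± 441 (SD, n = 3 each). KLK3 made up most of the rise of the sum, which therefore does not describe the 8 markers alike. All 4 basal markers with a probe set were below the limit, KRT5 and KRT14 among them, as were 3 of 4 leukocyte markers. Of 9 neuroendocrine markers 5 were below the limit, and their summed signal was 1135 to 1214 in the controls and 952 to 1186 with DHT. The 4 tested were TUBB3 (a control mean of 831), ENO2 (217), NCAM1 and CHGA, a defining marker, which had 21.9 ± 7.94 and 16.1 ± 11.0. TUBB3 made up most of that sum and was read from a probe set prone to cross-hybridisation, as were the luminal markers KRT8 and KRT18. Of 5 fibroblast markers 4 had a probe set above the limit, and the 5 summed to 278 to 279 and 184 to 251. The DCN probe set in that sum, at means of 12.4 and 17.9, was not the tested one. COL1A2 and COL3A1 were dim, at control means of 24.9 and 30.1. COL1A1 was lower (a control mean of 198, a difference of -0.54, limma adjusted p = 0.0186), and what part this has in the values above was not tested. For GAPDH the 3′ over 5′ control signal was 0.904 ± 0.044 in the controls and 1.06 ± 0.05 with DHT (two-sided exact permutation p = 0.1, the smallest possible). The labels call the arrays biological replicates and do not say whether cultures were grown on separate days. The limma p-values set each difference against the spread between these cultures, pooled in part over all tested probe sets.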

How the data were processed

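For 6 one-colour arrays the authors deposited linear signal intensities, 1 table in all. The submitters' processing notes name MAS5 without a version, and scanner files were not used here. Each array's mean after trimming 2% at both ends was 100.03, so arrays had been scaled, and no further normalisation was applied. Groups come from sample titles, and 0 columns were unused. Of 54675 probe sets, 62 are array controls; 41097 name 1 gene in the platform annotation, 1801 several and 11777 are unnamed here. The lowest 40% by mean log2 signal were left out, at a signal of 17.3, leaving 32768 probe sets and 14269 genes. Tests ran on log2(signal + 16), which understates changes of dim genes, with limma 3.58.1 (lmFit, eBayes with an intensity trend) in R 4.3.3 and Benjamini-Hochberg adjustment, and were tested on simulated data. The number of arrays limits the precision, with 4 residual degrees of freedom.

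The genes and lists were chosen with earlier results of these data known. Named genes are all probe sets of the 9 genes, and from each list up to 6 that passed and the largest difference that did not. They also include the 5 genes most like APP and its 3 nearest tested neighbours on each side. Alternatives were pseudocounts of 1 and 64, other limits on dim probe sets, quantile, median and spike scaling (18 control probe sets), the replicate number as a block, other variance settings, probe set means and leaving out each array. Same-numbered arrays of both groups did not deviate together (correlations of -0.01, -0.03 and -0.00), so numbers were not taken as pairs.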

Additional observations from a re-analysis of the deposited data

How the results depend on the processing

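The 3 probe sets of the 9 genes called lower and the 5 called higher became 14 and 0 with spike scaling. Those called higher were 8 with the limit on dim probe sets raised to 60%, 3 with equal array medians and 1 without the intensity trend in limma. With each array left out in turn there were 2 to 3 lower and 4 to 7 higher, among the other alternatives 2 or 3 lower and 5 to 7 higher. The 10 lower and 6 higher pathway genes became 70 and 1 with spike scaling, 5 and 3 with equal array medians, and 3 and 2 without the trend, with 3 higher when the probe sets of each gene were averaged. Leaving out each array gave 3 to 8 lower and 3 to 6 higher. Spike scaling subtracts a constant, so it changes signs by construction. It turned APLP2 208248_x_at to -0.16, 208702_x_at to -0.16, 208703_s_at to -0.32, 208704_x_at to -0.26, 211404_s_at to -0.15, 214875_x_at to -0.21 and 228520_s_at to -0.06, ADAM10 202603_at to -0.24, 202604_x_at to -0.42 and 214895_s_at to -0.22, ADAM17 205745_x_at to -0.42 and 213532_at to -0.50, BACE1 217904_s_at to -0.16, 222462_s_at to -0.19 and 224335_s_at to -0.48, BACE2 222446_s_at to -0.11, PSEN2 211373_s_at to -0.52 and NCSTN 208759_at to -0.52. It likewise turned APH1B to -0.13, SNX3 to -0.30, ADAM9 to -0.23, GABPA to -0.49 and MRPL39 to -0.53. GGA3, CDH2, CYYR1 and ADAMTS5, whose positive differences were smaller in size than the shift of -0.55, turned negative too. With the replicate number as a block, 3 probe sets of the 9 genes were lower and 6 higher, and 9 pathway genes were lower and 5 higher. Probe set 205746_s_at of ADAM17 lay near the signal limit of 17.3. The cause of the other changes was not tested.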
